A study of Mus musculus with 6 samples.

Results

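The 8 genes described here encode matricellular proteins of the tendon matrix. They were chosen by name from the RNA-seq count table, as the thrombospondins Thbs1, Thbs2, Thbs3 and Thbs4, the tenascins Tnc and Tnxb, periostin (Postn) and Sparc, and all 8 were found among its 54189 rows. RNA-seq measured total RNA of Achilles tendon from mice at 4 weeks of age, with 1 library of 1 mouse for each of 3 genotypes. Control mice were Dicer f/f, which carry floxed Dicer alleles without Cre. ScxHt mice were ScxCre/+ Knock In:Dicer +/+, and Dicer cKO mice were ScxCre/+ Knock In:Dicer f/f. Cre was expressed from the Scx locus itself, so ScxHt and Dicer cKO mice share 1 Scx allele disrupted by the knock-in, while Control and Dicer cKO mice share the floxed Dicer alleles. Recombination is limited to cells that express Scx or descend from such cells, and other cells of the tendon keep Dicer. The authors propose that this recombination may be inefficient and mosaic, so cells that express Scx may also keep Dicer.

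Matricellular proteins are secreted into the matrix but serve mainly to regulate how cells, growth factors and fibrils interact, rather than as load-bearing fibrils themselves. Thrombospondins bind calcium, collagens, integrins and growth factors, tenascins modulate the adhesion and mechanics of connective tissue, and periostin and SPARC take part in collagen fibril assembly. Dicer cuts hairpin precursors into mature miRNAs, which lower the level and translation of mRNAs that they pair with.

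The libraries held 14959399 to 16244232 counted reads. Dicer1 had 1919 reads in Control, 2025 in ScxHt and 1621 in Dicer cKO tendon, and these whole-gene counts do not isolate the floxed part, so they do not check the deletion. Scx, the tendon transcription factor whose locus carries Cre, had 1055, 686 and 371 reads in the same order. The libraries also differed in the reads of cell type markers. The 10 skeletal muscle markers held 5.35% of all reads in Control, 3.01% in ScxHt and 9.19% in Dicer cKO tendon, and the 8 Schwann cell markers held 0.0238%, 0.0310% and 0.0726%. The 5 macrophage markers held 0.0205%, 0.0384% and 0.0164%, and the 6 tendon fibroblast markers 13.2%, 11.4% and 7.60%. The part of these differences in the values of the 8 genes was not tested. In bulk tissue, fewer cells of a type and less RNA per cell cannot be told apart.

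All 8 genes had at least 809 reads in every library, and together they held 2.77% of the reads in Control, 3.44% in ScxHt and 1.93% in Dicer cKO tendon. Levels of different genes were compared as RPKM, the reads scaled to gene length and library size. The length corresponds to all annotated exons of a gene together, which for Postn is 8702 bases over 9 transcripts. With the length of a single transcript the order and ranks of the genes may differ, which was not tested. Sparc, a collagen-binding glycoprotein, was by far the most abundant, with an RPKM of 5319 in Control, 6452 in ScxHt and 3763 in Dicer cKO tendon. It ranked 9, 5 and 19 among all features of these libraries. Thbs4 came next in each library and Thbs3 last. In the Control the order was Sparc, Thbs4, Thbs1, Thbs2, Tnc, Tnxb, Postn and Thbs3, and Postn stood above Tnxb in the ScxHt and the Dicer cKO library. With 1 library per genotype there is no spread between mice to set against these levels.

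**Figure D1:**
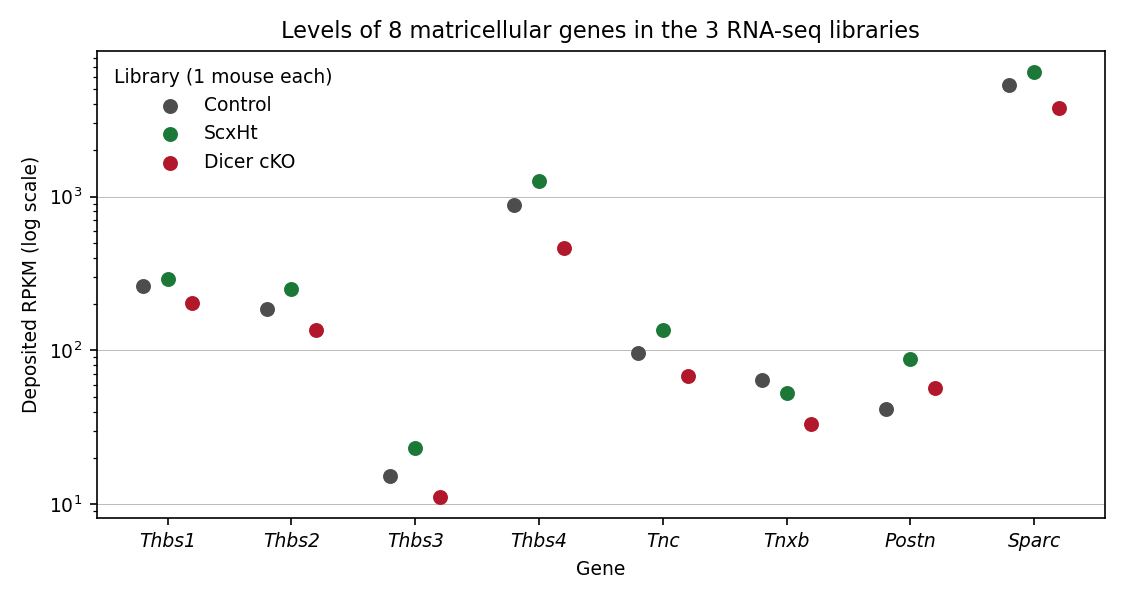
Deposited RPKM (log scale) of the 8 matricellular genes in the Control, ScxHt and Dicer cKO RNA-seq libraries, with 1 point per library. For 6 of the 8 genes the ScxHt point is highest and the Dicer cKO point lowest; Tnxb is highest in the Control and Postn lowest there.

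Libraries were compared through normalized counts, the reads divided by DESeq2's size factors for the pair of libraries. A gene entered with a baseMean, its mean normalized count over the pair, above 50, which all 8 genes passed in each comparison. It was called higher above a ratio of 1.67 and lower below 0.60. Each ratio is given with its 95% exact counting interval, which covers counting error only, and no test between genotypes was possible. In Dicer cKO against Control, 2 of the 8 genes were lower (Tnxb and Thbs4) and 0 were higher, where 4.17% of 13504 genes were lower and 3.87% higher. In ScxHt against Control, 0 of the 8 were lower and 1 was higher (Postn), where 4.73% of 13563 genes were lower and 3.05% higher. In Dicer cKO against ScxHt, 4 were lower (Thbs4, Thbs3, Tnc and Thbs2) and 0 higher, where 5.68% of 13555 genes were lower and 7.67% higher.

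Below the thresholds the 8 genes also leaned to one side. The whole counting interval lay below 1 for 7 of the 8 genes in Dicer cKO against Control, where this held for 28.4% of all genes, and the 8 genes had a median log2 ratio of -0.54 against -0.03 over all genes. In ScxHt against Control the interval lay above 1 for 7 of the 8, against 26.4% of all genes, with medians of 0.35 and 0.02. In Dicer cKO against ScxHt it lay below 1 for all 8, against 30.5% of all genes, with medians of -0.77 and -0.03. The counting interval narrows with more reads, and the shares over all genes include genes with a baseMean just above 50. The counts of the 8 genes and these shares are therefore not alike. By the ratio alone, 54.1% of all genes lay below 1 in Dicer cKO/Control, 47.4% in ScxHt/Control and 53.9% in Dicer cKO/ScxHt. The comparisons share libraries, so they are not independent of each other. Thbs1, Thbs2, Thbs3, Thbs4, Tnc and Sparc had the order ScxHt, Control, Dicer cKO from high to low, Tnxb the order Control, ScxHt, Dicer cKO, and Postn the order ScxHt, Dicer cKO, Control.

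These directions depend on what the libraries are scaled to. When the median ratio of the 6 tendon fibroblast markers was set to 1, the median gene of the whole table moved up by 0.84 on the log2 scale in Dicer cKO against Control. On that scale Thbs4 had a ratio of 0.902 and Tnxb of 0.878, while Thbs1 (1.34), Thbs3 (1.27), Thbs2 (1.24), Tnc (1.22), Sparc (1.21) and Postn (2.35) lay above 1. Relative to the median of Tnmd, Fmod, Col1a1, Col1a2, Dcn and Kera, 2 of the 8 genes were thus below and 6 above in the Dicer cKO library. The split depends on the marker, as their own Dicer cKO/Control ratios before this scaling ranged from 0.455 (Fmod) to 0.948 (Tnmd). Over Fmod alone all 8 genes were above, and over Tnmd alone only Postn was. In ScxHt against Control with the marker median set to 1, Thbs1 (0.903) and Sparc (0.976) lay below 1 with Tnxb. Postn was still above 1.67 there, at 1.72. In Dicer cKO against ScxHt, Thbs1 (1.29), Postn (1.19), Tnxb (1.16), Sparc (1.08) and Thbs2 (1.001) lay above 1, and Tnc (0.933), Thbs3 (0.889) and Thbs4 (0.683) below.

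**Figure D2:**
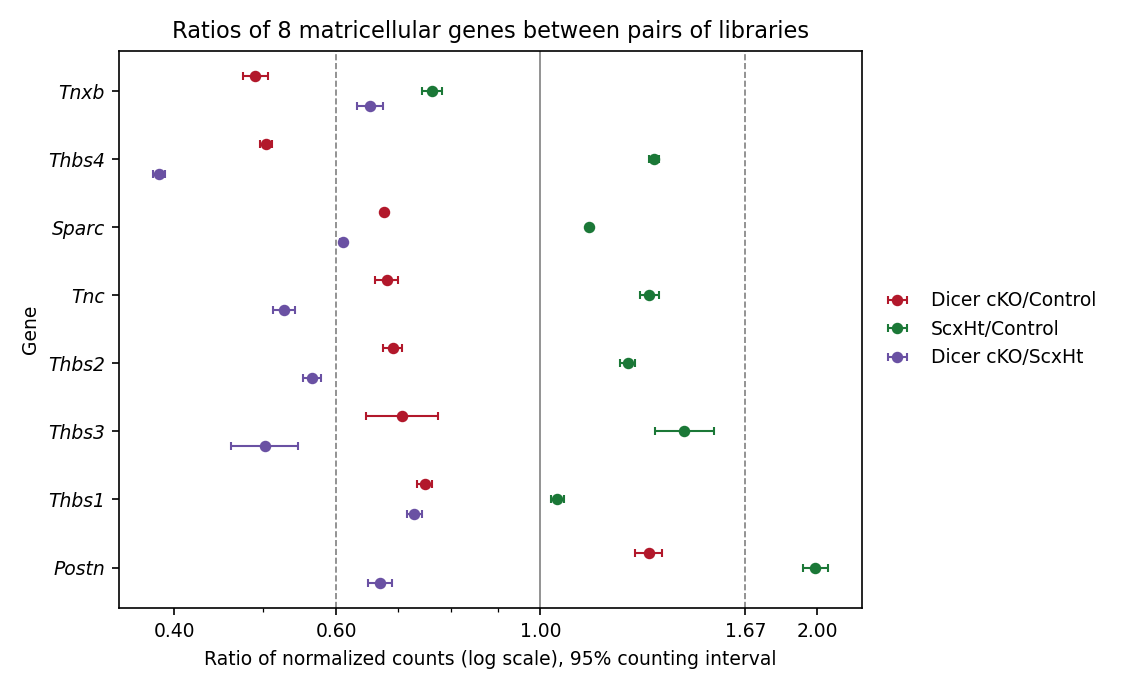
Ratio of normalized counts (log scale) of each gene for all 3 pairs of libraries, with 95% exact counting intervals as bars; dashed lines mark 0.60 and 1.67. Postn is the only gene with a Dicer cKO/Control ratio above 1 (1.31) and the only one with a ScxHt/Control ratio above 1.67 (1.99), and all 8 Dicer cKO/ScxHt ratios lie below 1, which does not hold when the libraries are scaled to tendon fibroblast markers.

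Thbs4 is the pentameric thrombospondin of tendon and muscle, known for a role in tendon matrix organization. It had 47181 reads in Control, 65404 in ScxHt and 22881 in Dicer cKO tendon, or an RPKM of 883, 1261 and 465. The Dicer cKO library was thus lowest and the ScxHt library highest. The ratio of normalized counts was 0.504 (0.496 to 0.512) in Dicer cKO/Control, 1.33 (1.31 to 1.34) in ScxHt/Control and 0.385 (0.380 to 0.391) in Dicer cKO/ScxHt. Only 1.64% of all genes had a smaller Dicer cKO/Control ratio, and only 0.686% a smaller Dicer cKO/ScxHt ratio. The gene lies on the minus strand at chr13:92751590-92794818 of GRCm38. Scleraxis, the product of Scx, is a basic helix-loop-helix factor, a class of proteins that binds E-boxes (CANNTG, which reads the same on both strands in this general form). The 250 bases before the start of Thbs4 are shown because it had the smallest ratio against ScxHt, with the E-box in capitals (RefSeq, GRCm38.p6, chr13:92794819-92795068, minus strand).
Thbs4: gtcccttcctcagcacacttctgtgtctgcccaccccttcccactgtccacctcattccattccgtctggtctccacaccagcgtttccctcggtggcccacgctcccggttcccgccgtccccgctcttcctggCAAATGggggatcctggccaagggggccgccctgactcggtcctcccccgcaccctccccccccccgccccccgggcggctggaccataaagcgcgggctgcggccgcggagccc
The E-box CAAATG begins 115 bases before the start, and another, CACCTG, begins at base 44 after it. A CANNTG match is a description of letters and not a binding site, and 72.3% of 32544 RefSeq promoter windows of 300 bases hold at least 1.

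Thbs1 and Thbs2 are the trimeric thrombospondins, which limit angiogenesis, and Thbs1 also activates latent TGF-beta. Thbs1 had 25706 reads in Control, 27988 in ScxHt and 18528 in Dicer cKO tendon, and its ratios were 0.748 (0.734 to 0.763) in Dicer cKO/Control and 1.04 (1.03 to 1.06) in ScxHt/Control. Thbs2 had 17968, 23322 and 11956 reads, with ratios of 0.691 (0.675 to 0.707) and 1.24 (1.22 to 1.27). Against ScxHt, the Dicer cKO library had 0.729 of the Thbs1 and 0.565 of the Thbs2 counts, and the Thbs2 value passed the lower threshold. Thbs1 lies at chr2:118111876-118127133 on the plus strand and Thbs2 at chr17:14665500-14694235 on the minus strand.

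Thbs3, a pentameric thrombospondin linked to skeletal maturation, was the least abundant of the 8. It had 1188 reads in Control, 1777 in ScxHt and 809 in Dicer cKO tendon, or an RPKM of 15.2, 23.4 and 11.2. Its ratio was 0.707 (0.646 to 0.774) in Dicer cKO/Control, 1.43 (1.33 to 1.54) in ScxHt/Control and 0.502 (0.461 to 0.545) in Dicer cKO/ScxHt. At chr3:89215180-89226837 on the plus strand, 6.59% of its exonic bases are also exon of Mtx1 on the other strand. Whether the counting used the strand was not stated. Mtx1 had 186, 126 and 117 counted reads, and the effect of the overlap on the Thbs3 counts was not tested.

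Comp, cartilage oligomeric matrix protein, is the fifth thrombospondin and is not among the 8 genes. It had 16710 reads in Control, 23084 in ScxHt and 7418 in Dicer cKO tendon, and its Dicer cKO/Control ratio of 0.461 (0.449 to 0.474) was below that of Thbs4. Reads of Thbs4 per read of Comp were 2.82 (2.77 to 2.87) in Control, 2.83 (2.79 to 2.88) in ScxHt and 3.08 (3.005 to 3.17) in Dicer cKO tendon. Such ratios within a library need no scaling. Reads of Thbs4 per read of Thbs1 were 1.84 (1.81 to 1.86), 2.34 (2.30 to 2.37) and 1.23 (1.21 to 1.26), so this pair changed far more than Thbs4 with Comp. By RPKM, Thbs4 made up 65.6% of Thbs1 to Thbs4 in Control, 69.0% in ScxHt and 57.0% in Dicer cKO tendon, while Thbs1 made up 19.4%, 16.0% and 25.02%. The shares of Thbs2 (13.9%, 13.7% and 16.6%) and Thbs3 (1.13%, 1.28% and 1.38%) moved by fewer percentage points.

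**Figure D3:**
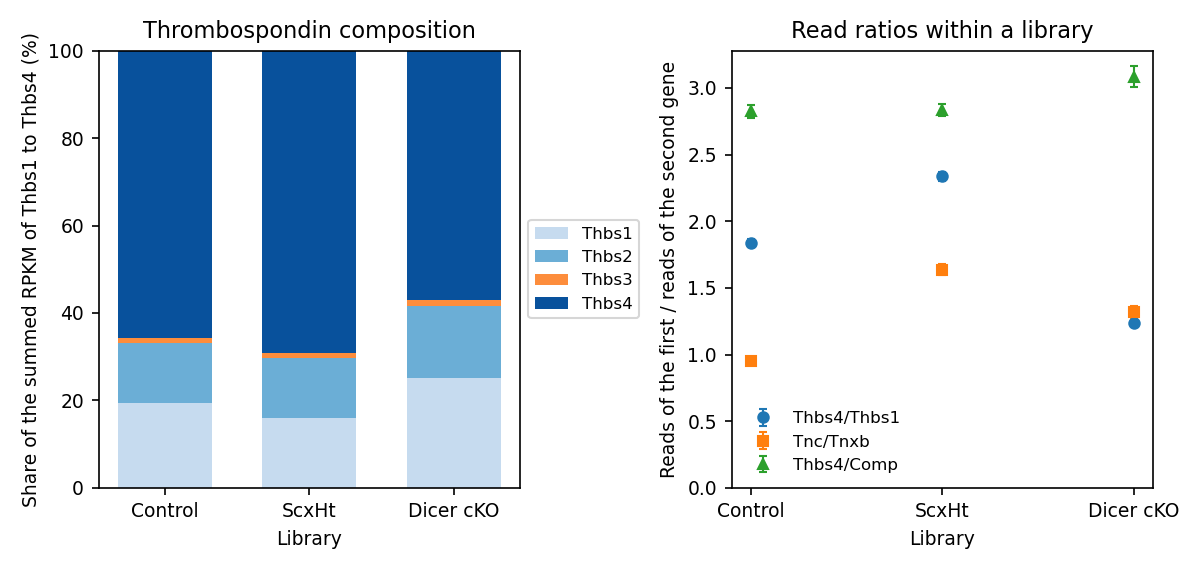
Left, stacked bars of the share (%) of each gene in the summed RPKM of Thbs1 to Thbs4 in each library. Right, reads of the first gene divided by reads of the second within each library, with 95% exact counting intervals: Thbs4/Comp stays between 2.82 and 3.08, Thbs4/Thbs1 is lowest in the Dicer cKO library at 1.23, and Tnc/Tnxb is lowest in the Control at 0.950.

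The tenascins behaved differently from each other. Tnc, a hexameric tenascin induced by load and injury, had 12147 reads in Control, 16651 in ScxHt and 7962 in Dicer cKO tendon. Its ratio was 0.681 (0.662 to 0.700) in Dicer cKO/Control, 1.31 (1.28 to 1.34) in ScxHt/Control and 0.527 (0.513 to 0.541) in Dicer cKO/ScxHt. Tnxb, tenascin-X, whose loss in humans causes a form of Ehlers-Danlos syndrome, had 12786, 10176 and 6034 reads, so it was lowest in the Dicer cKO library but highest in the Control. Its ratio was 0.490 (0.475 to 0.505) in Dicer cKO/Control, the smallest among the 8 genes, although its interval overlapped that of Thbs4. In ScxHt/Control it was 0.763 (0.743 to 0.783), the only one of the 8 below 1, and in Dicer cKO/ScxHt 0.653 (0.633 to 0.675). Reads of Tnc per read of Tnxb were 0.950 (0.927 to 0.974) in Control, 1.64 (1.596 to 1.68) in ScxHt and 1.32 (1.28 to 1.36) in Dicer cKO tendon, so both knock-in libraries stood above the Control. Reads of Tnxb per read of a tendon marker depended on the marker. They were 1.21, 0.659 and 0.624 per read of Tnmd, 0.0101, 0.0110 and 0.00917 per read of Col1a1, and 0.129, 0.0912 and 0.139 per read of Fmod. The Control was thus highest over Tnmd, the ScxHt library over Col1a1 and the Dicer cKO library over Fmod. Thbs4 had 4.46, 4.24 and 2.37 reads per read of Tnmd, 0.0374, 0.0706 and 0.0348 per read of Col1a1, and 0.475, 0.586 and 0.526 per read of Fmod, so the Dicer cKO library was lowest over Tnmd and Col1a1 but not over Fmod. Tnc lies at chr4:63959785-64047015 on the minus strand and Tnxb at chr17:34670535-34719815 on the plus strand.

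Postn, a fasciclin-domain protein secreted by fibroblasts that promotes collagen fibril assembly, departed from the common order, as Tnxb did, but in another way. It had 5838 reads in Control, 12125 in ScxHt and 7370 in Dicer cKO tendon, or an RPKM of 41.3, 88.4 and 56.6. The Control was thus lowest and the ScxHt library highest, and its rank among all features was 667 in Control, 305 in ScxHt and 462 in Dicer cKO tendon. Its ratio was 1.31 (1.27 to 1.36) in Dicer cKO/Control, 1.99 (1.93 to 2.05) in ScxHt/Control and 0.670 (0.651 to 0.689) in Dicer cKO/ScxHt. Of all genes, 99.1% had a smaller ScxHt/Control ratio. Per read of Tnmd, Postn had 0.551 (0.534 to 0.569) reads in Control, 0.786 (0.767 to 0.805) in ScxHt and 0.762 (0.739 to 0.786) in Dicer cKO tendon, with overlapping intervals of the knock-in libraries. Per read of Col1a1 it had 0.00463, 0.0131 and 0.0112 reads, and per read of Fmod 0.0588, 0.109 and 0.169, with the intervals of the 3 libraries apart. The Control was lowest over each of these 3 markers, and the order of the knock-in libraries changed with the marker. The macrophage marker Csf1r had 574, 1113 and 416 reads, and 4 of the 5 macrophage markers passed 1.67 in ScxHt/Control. Their part in the Postn value was not tested.

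Postn lies at chr3:54361109-54391037 on the plus strand. It was the only one of the genes with a RefSeq promoter entry in which no CANNTG was found, in either of its 2 windows of 300 bases, while Sparc held 3, Thbs2 2, Thbs3 1, Tnxb 1 and the overlapping windows of Tnc 2 and 3. The form CATCTG, or CAGATG on the other strand, was present once each in Sparc and Thbs3, and in 17.1% of all windows. Thbs1 had no entry. The 250 bases before the annotated Postn start are shown for comparison with Thbs4 (RefSeq, GRCm38.p6, chr3:54360857-54361106, plus strand).
Postn: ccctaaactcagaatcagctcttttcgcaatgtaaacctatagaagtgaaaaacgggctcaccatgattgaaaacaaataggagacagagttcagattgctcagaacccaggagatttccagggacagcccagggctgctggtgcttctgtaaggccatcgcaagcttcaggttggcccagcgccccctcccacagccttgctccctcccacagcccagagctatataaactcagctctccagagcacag
The absence of a match says only that these letters are not in this window.

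Sparc, on the minus strand at chr11:55394500-55423183, had 327276 reads in Control, 385347 in ScxHt and 213214 in Dicer cKO tendon. Its ratio was 0.677 (0.673 to 0.680) in Dicer cKO/Control, 1.13 (1.12 to 1.13) in ScxHt/Control and 0.610 (0.606 to 0.613) in Dicer cKO/ScxHt. The last value lies just above the lower threshold, and with total counts as the scale it was 0.583 and passed it. Sparc binds collagen I. Its reads per read of Col1a1 were 0.259 in Control, 0.416 in ScxHt and 0.324 in Dicer cKO tendon, so relative to this collagen the Control was lowest. This depended on the marker. Tnmd had ratios of 0.948 in Dicer cKO/Control and 1.40 in ScxHt/Control, both above those of Sparc, so over Tnmd the Control was highest. For Fmod they were 0.455 and 1.08, both below those of Sparc, so over Fmod the Control was lowest. Per read of Postn, Sparc had 56.1 reads in Control, 31.8 in ScxHt and 28.9 in Dicer cKO tendon. In the order of Dicer cKO/Control ratios, the counting intervals of Sparc, Tnc, Thbs2, Thbs3 and Thbs1 each overlapped the next, whereas Thbs4 and Postn stood clear of that run on either side.

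The genes closest to each of the 8 were sought among 243 genes with a mean RPKM of at least 100, by distance in the plane of the log2 Dicer cKO/Control and log2 ScxHt/Control ratios. These describe 3 libraries only. For Thbs4 they were Clu, Fn1 and Igfbp6, with Fn1, fibronectin, at 52621 reads in Control, 77906 in ScxHt and 25605 in Dicer cKO tendon (log2 distance 0.10). For Thbs2 they were Abi3bp, Fibin and Col6a3, for Tnc Col5a2, Fibin and Pam, and for Thbs1 Igfbp7, Ppic and Timp3. For Thbs3 they were Serpinf1, Ccdc80 and Cst3, and for Sparc Gm26377, Ndfip1 and Nrep. Each neighbour of these genes lay within a log2 distance of 0.12. Gm26377 had only 279 reads in Control, 326 in ScxHt and 183 in Dicer cKO tendon, so counting error alone could change its place. Tnxb had Col1a1 nearest at a distance of 0.19, then Cilp2 and Col1a2. Col1a1, the alpha 1 chain of type I collagen, had 1261322 reads in Control, 925996 in ScxHt and 658168 in Dicer cKO tendon. That is the same order as Tnxb, as choosing genes by these ratios implies. Postn had no gene as close among the 243, and its nearest were Lgals1, Calm2 and Tceal9 at distances of 0.30 to 0.37. Genes at the level of Postn itself, an RPKM of 41.3 to 88.4, were not in this set.

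Other matricellular genes did not all follow the 8. Of the thrombospondin and tenascin relatives, 3 of 5 passed the count filter, and 1 (Comp) was lower in Dicer cKO/Control. Of the SPARC and periostin relatives, 7 of 8 passed, 0 were lower and 1 was higher: Smoc2, a SPARC-related calcium-binding protein, had 235 reads in Control, 289 in ScxHt and 484 in Dicer cKO tendon (ratio 2.14, 1.83 to 2.51). Tgfbi, the closest paralog of Postn, had 8518, 13568 and 6215 reads, so like Postn it was highest in the ScxHt library (ScxHt/Control 1.53), but unlike Postn it lay below the Control in the Dicer cKO library (0.758). Of the CCN family 5 of 6 passed and 2 were lower, Ccn1, listed as Cyr61, at 0.494 (0.469 to 0.521) and Ccn2, listed as Ctgf, at 0.5998 (0.588 to 0.612), just inside the threshold. Of the other matricellular genes 5 of 6 passed and 2 were lower. They were Spp1, osteopontin, with 5412, 9579 and 1506 reads (0.289, 0.273 to 0.306) and Fbln1, fibulin-1, with 924, 1470 and 425 reads (0.478, 0.425 to 0.536). Both were highest in the ScxHt library, as were 7 of the 8 genes.

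The receptors of these proteins had a median closer to that of all genes, with values to both sides. All 22 receptor genes passed the filter. In Dicer cKO/Control the counting interval lay below 1 for 10 of the 22 and above 1 for 6, against 28.4% and 21.5% of all genes. Of these receptors 0 were higher or lower, and their median log2 ratio was -0.07. Those nearest the lower threshold were Cd47, the thrombospondin-1 receptor, with 2062 reads in Control, 2165 in ScxHt and 1208 in Dicer cKO tendon (0.608, 0.566 to 0.653), and Lrp1, an endocytic receptor of thrombospondins, with 39419, 42480 and 23802 reads (0.627, 0.617 to 0.637). Cacna2d1, a thrombospondin receptor and calcium channel subunit of muscle, had 4758, 3936 and 6148 reads (1.34, 1.29 to 1.39). Itgb6 had the largest ratio of the list, 1.61 (1.41 to 1.83), and Vcam1 was next (1.31 to 1.97). In ScxHt/Control 0 receptors were higher and 2 lower (Ptprz1 0.422 and Itgb6 0.556), and in Dicer cKO/ScxHt 3 were higher (Ptprz1 3.09, Itgb6 2.94 and Cacna2d1 1.72) and 2 lower (Sdc1 0.526 and Sdc4 0.591). Of the 8 TGF-beta ligands, binding proteins and receptors, 7 had an interval below 1 in Dicer cKO/Control, against 28.4% of all genes. Their median log2 ratio was -0.35, and 1, the co-receptor Tgfbr3, was lower at 0.517 (0.497 to 0.537).

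Cell type markers gave the following counts beside these values. In Dicer cKO/Control, 4 of 6 tendon fibroblast markers were lower, with a median log2 ratio of -0.84, which is further from 0 than the -0.54 of the 8 genes, and Tnmd was at 0.948. Of the cartilage and bone markers 5 of 7 passed and 4 were lower, with Sox9 at 0.256, while Bglap was at 0 in all 3 libraries. Of the skeletal muscle markers 5 of 10 were higher, and of the Schwann cell markers 6 of 8 passed and 5 were higher. None of the 5 endothelial, 5 macrophage and 5 adipocyte markers was higher or lower, and of the synovium and sheath markers 2 of 3 passed and 1, Prg4, was lower at 0.481. In Dicer cKO/ScxHt, 5 of 5 macrophage, 3 of 6 tendon fibroblast, 4 of 5 cartilage and bone and 1 of 2 synovium and sheath markers were lower. In the same comparison, 9 of 10 skeletal muscle, 5 of 7 Schwann cell and 2 of 5 endothelial markers were higher, and 0 of 5 adipocyte markers were higher or lower. In ScxHt/Control, 4 of 5 macrophage markers were higher, 2 skeletal muscle markers were higher and 5 lower, and no marker of the other lists passed either threshold. Their part in the ratios of the 8 genes was not tested.

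**Figure D4:**
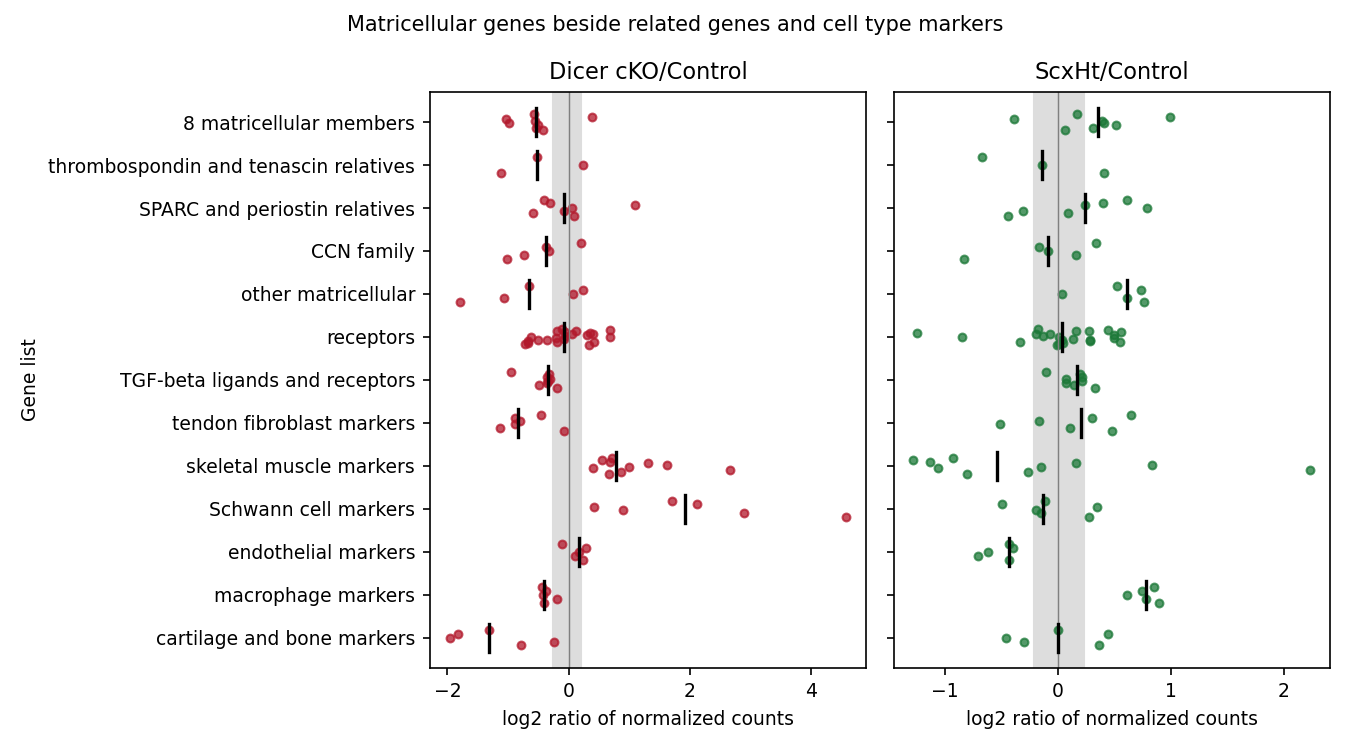
Log2 ratio of normalized counts in Dicer cKO/Control (left) and ScxHt/Control (right) for each gene (points) of the 8 matricellular genes, of 6 lists of related genes and of 6 lists of cell type markers, with the list median as a black line and the middle 50% of all genes as a grey band. The median of the 8 genes is -0.54 on the left and 0.35 on the right, and that of the tendon fibroblast markers -0.84 and 0.21.

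Matches to miRNA seeds were sought within the longest 3′ UTR that the annotation gives for each gene, for miR-29, let-7, miR-18, miR-19, miR-135a, miR-1247 and miR-511. An 8mer pairs with bases 2 to 8 of the miRNA and has an A opposite base 1, and a 7mer pairs with bases 2 to 8 alone. These UTRs were 161 bases long in Thbs4, 188 in Tnxb, 253 in Thbs3, 648 in Tnc, 738 in Postn, 1085 in Sparc, 2013 in Thbs2 and 2104 in Thbs1, against a median of 1312 in 10949 genes. There was 1 8mer, for miR-19 in Postn, and 3 7mers, for miR-19 in Tnc and for miR-18 and miR-511 in Thbs1. Neither kind of match was found for miR-29, let-7, miR-135a or miR-1247, nor for any of the 7 in Thbs2, Thbs3, Thbs4, Tnxb and Sparc. Matches to bases 2 to 7 only were not sought, nor were shorter UTRs of these genes searched. An 8mer for miR-19 was present in 6.31% of all genes, and an 8mer or 7mer in 14.2% for miR-19, 10.03% for miR-18 and 13.8% for miR-511. The mature miRNAs with a match are shown with the seed in capitals, and the sites with the paired bases in capitals (in the 8mer also the A opposite base 1).
miR-19a-3p: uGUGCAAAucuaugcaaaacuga
miR-19b-3p: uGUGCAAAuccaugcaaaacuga
miR-18a-5p: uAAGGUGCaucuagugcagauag
miR-511-3p: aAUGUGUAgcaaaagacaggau
Postn, miR-19 site, chr3:54390618-54390625, plus strand: catacagctaagtcTTTGCACAgtaaaa
Tnc, miR-19 site, chr4:63960251-63960257, minus strand: ctgcaacgacttccTTTGCACcaaagac
Thbs1, miR-18 site, chr2:118125064-118125070, plus strand: ccagcgctggcaatGCACCTTctaaaaa
Thbs1, miR-511 site, chr2:118127030-118127036, plus strand: ttttttttattttgTACACATttttatc
The mature sequences are from RefSeq and the sites from GRCm38, with the coordinates of the paired bases.

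The small RNA-seq libraries of the same 3 tendon samples gave the levels of these miRNA loci. Mir19a had 41 reads in Control, 46 in ScxHt and 94 in Dicer cKO tendon, a Dicer cKO/Control ratio of 2.63 (1.80 to 3.89), Mir19b-1 had 400, 381 and 650 reads (1.86, 1.64 to 2.11), and Mir19b-2, which gives the same mature miR-19b-3p, had 398, 380 and 653 (1.88, 1.66 to 2.14). The 3 miR-19 loci were thus highest in the Dicer cKO library, where Postn lay above and Tnc below the Control. Mir18 had 33, 32 and 20 reads, with an interval that spans 1 (0.695, 0.378 to 1.25). Mir511 had 34, 27 and 3 reads, and the ratio was 0.101 (0.0199 to 0.322). For miR-29, no match of the 2 kinds sought was found in the longest 3′ UTRs of the 8 genes. Its locus Mir29a had 13829, 10302 and 7624 reads and a Dicer cKO/Control ratio of 0.632 (0.614 to 0.650). The ratio was 0.825 (0.771 to 0.883) for Mir29c, 0.956 (0.831 to 1.10) for Mir29b-1 and 0.967 (0.839 to 1.11) for Mir29b-2. A seed match is a description, and whether these miRNAs act on Postn, Tnc or Thbs1 was not tested.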

How the data were processed

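Total RNA of Achilles tendon was sequenced as 3 RNA-seq and 3 small RNA-seq libraries, 1 per genotype. The authors trimmed adaptors, mapped reads to GRCm38 (mm10) with TopHat and Bowtie2, and deposited raw read counts per gene from HTSeq. Deposited RPKM values, which the authors scaled to gene length and library total, served here only for levels between genes. Versions, annotation release and strand setting are not given in the sources used here. Of the lines of the RNA-seq table, 463 repeat an earlier line and were kept.

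The 8 genes, the related gene and marker lists and the comparisons were chosen with earlier results of these data known. Named genes were the 8, all list members, Dicer1 and Scx, and the 3 nearest genes of each of the 8. The single value of 1 marker is not reported here. Counts were divided by DESeq2 1.42.0 size factors of each pair of libraries (R 4.3.3), and ratios with 95% Clopper-Pearson intervals came from Python 3.11.15 (scipy 1.17.1, pandas 2.3.3, numpy 2.4.6). Thresholds were a baseMean above 50 (above 15 for small RNA) and ratios above 1.67 or below 0.60. With 1 library per genotype no p-value was computed. Alternatives were edgeR 4.0.16 TMM factors, total counts, size factors over 3 libraries, total counts without features above 1% of a library, scaling to tendon fibroblast markers, an interval lying wholly past the threshold, thresholds of 2 and 0.5, a pseudocount of 1, and minimum baseMeans of 10, 200 or none. The 7mers were added after the 8mers were counted. Reads per read of Col1a1 and Fmod were added after those per read of Tnmd were seen. The script was tested on simulated data. GENCODE vM21 gave positions and 3′ UTRs, and promoters and mature miRNAs from RefSeq. By symbol, 7 of the 8 genes matched a promoter.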

Additional observations from a re-analysis of the deposited data

How the results depend on the processing

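No paired analysis was possible because each genotype had 1 library and the result comes from no test, so no library could be left out either and intervals reflect counting depth alone. Of 120 ratios of the 8 genes under the 5 other scalings, 12 lay on the other side of 1, all with scaling to tendon fibroblast markers, where the Dicer cKO/ScxHt ratio of Thbs2 turned from 0.565 to 1.001. With that scaling, in Dicer cKO/Control 1 of the 8 genes was higher (Postn) and 0 lower, in Dicer cKO/ScxHt 0 were lower, and the medians over the 8 genes on the log2 scale became 0.30 in Dicer cKO/Control, 0.15 in ScxHt/Control and 0.06 in Dicer cKO/ScxHt. It shifted the median of all genes by 0.84, -0.21 and 0.82, so the scale itself accounts for the move. With total counts the shift was 0.11 in ScxHt/Control and the medians of the 8 genes were -0.48, 0.46 and -0.83. With thresholds of 2 and 0.5, 1 gene (Tnxb) was lower in Dicer cKO/Control, 0 were higher in ScxHt/Control and 1 (Thbs4) was lower in Dicer cKO/ScxHt. Over all genes in Dicer cKO/Control, the 523 higher and 563 lower genes became 7881 and 42 with scaling to tendon fibroblast markers, 215 and 216 with thresholds of 2 and 0.5, 164 and 184 with the interval wholly past the threshold, and 1563 and 1434, 160 and 239, and 5392 and 5495 with a minimum baseMean of 10, 200 and none. Where they moved by over 1.5 times, the counts ranged from 73 to 5205 higher and 270 to 5552 lower in ScxHt/Control (414 and 641 as reported), and from 521 to 7573 higher and 45 to 5667 lower in Dicer cKO/ScxHt (1039 and 770 as reported).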
